A study of Mus musculus with 23 samples.

Results

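The immediate early AP-1 and Egr genes are 10 of the 35322 genes listed in the RNA-Seq data: Fos, Fosb, Fosl1 and Fosl2 of the Fos family, Jun, Junb and Jund of the Jun family, and Egr1, Atf3 and Ier2. They were taken by gene symbol. Lungs of 23 BALB/c mice were sequenced, all of them 13-week-old offspring described as female. Sham (n = 7) and Sham-OVA (n = 5) offspring were born to saline-exposed dams, and PM (n = 7) and PM-OVA (n = 4) offspring to dams exposed to fine particulate matter (PM2.5) across development. Sham-OVA and PM-OVA mice underwent sensitisation and airway challenge with ovalbumin (OVA), a model of allergic airway disease, whereas Sham and PM mice received saline (PBS in the labels). No group carried a transgene. Lungs were taken the day after the last OVA administration, so the minutes after a challenge were not sampled. All mice had been through lung function testing with methacholine before the tissue was taken, so every group shared that handling. Litters were not given for the libraries, and p-values measure only the spread between these mice.

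Immediate early genes are transcribed within minutes of a stimulus without the need for new protein, and their mRNAs are short-lived. Fos and Jun proteins pair through leucine zippers to form AP-1, which binds DNA at genes of proliferation, stress, inflammation and matrix remodelling, and Egr1 is a zinc finger factor induced by the same kinase pathways. In the lung these genes respond to injury, stretch and inflammatory signals, and also to the handling of tissue during its removal.

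Levels are given as RPM, reads scaled to the library total without correction for gene length. The reads on genes ranged from 13089691 to 17393579 in the saline libraries and from 2298645 to 12355561 in the OVA libraries. The 3 shallowest libraries were replicate 3 of Sham-OVA, in which 1 read was worth 0.311 RPM, and replicates 3 and 4 of PM-OVA, in which it was worth 0.133 and 0.182 RPM. All 10 genes passed the filter on low values, 0.5 RPM or more in 4 or more libraries. Sham replicate 1 went against the description as female: Xist was at 0.289 RPM, where the remaining 6 Sham mice ranged from 528 to 1618 RPM, and Eif2s3y, a Y-linked gene, at 54.0 RPM. It held the highest Sham values of Fosl1, Jun, Egr1 and Atf3, and the same 6 of the 10 genes were called after OVA challenge without it. The 8 lung epithelial markers were above 0 in every group, with summed levels of 27889 RPM or more. All 9 genes of the type 2 response list rose after OVA challenge in both cohorts (limma, adjusted p under 0.05), as did 5 of 7 plasma cell genes. In each cohort 1 plasma cell gene was called lower. Of all genes tested, 20.6% in Sham and 20.1% in PM offspring were called higher. In bulk tissue, fewer cells of a type and less RNA per cell cannot be told apart.

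The 250 bases before the start site are shown for 4 of the genes, Fos, Fosb and Jun, whose levels were lower after OVA challenge, and Junb, whose level was higher. They come from the RefSeq annotation of GRCm38.p6, the C57BL/6J reference, so BALB/c bases can differ. Fos lies on chromosome 12 in the plus direction (chr12:85473640-85473889), Fosb on chromosome 7 (chr7:19310046-19310295), Jun on chromosome 4 (chr4:95052223-95052472) and Junb on chromosome 8 (chr8:84978749-84978998), these 3 on the minus strand. Capitals mark the core TGACG of the cAMP response element, the Jun site TGACATCA and the TATA box TATAAA on either strand, and no marked stretch overlaps another.
Fos: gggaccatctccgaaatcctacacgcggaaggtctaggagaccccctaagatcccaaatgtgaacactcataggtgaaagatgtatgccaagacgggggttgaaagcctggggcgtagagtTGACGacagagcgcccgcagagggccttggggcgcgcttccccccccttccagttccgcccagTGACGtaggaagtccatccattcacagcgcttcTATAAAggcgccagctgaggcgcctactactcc
Fosb: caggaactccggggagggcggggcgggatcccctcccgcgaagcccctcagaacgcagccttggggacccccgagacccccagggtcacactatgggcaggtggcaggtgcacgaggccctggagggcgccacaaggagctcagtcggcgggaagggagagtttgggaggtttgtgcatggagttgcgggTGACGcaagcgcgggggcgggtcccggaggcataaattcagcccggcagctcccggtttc
Jun: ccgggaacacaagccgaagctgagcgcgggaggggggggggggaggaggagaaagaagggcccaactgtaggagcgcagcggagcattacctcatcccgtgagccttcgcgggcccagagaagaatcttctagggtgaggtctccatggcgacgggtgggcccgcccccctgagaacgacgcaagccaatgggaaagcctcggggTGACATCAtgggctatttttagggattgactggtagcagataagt
Junb: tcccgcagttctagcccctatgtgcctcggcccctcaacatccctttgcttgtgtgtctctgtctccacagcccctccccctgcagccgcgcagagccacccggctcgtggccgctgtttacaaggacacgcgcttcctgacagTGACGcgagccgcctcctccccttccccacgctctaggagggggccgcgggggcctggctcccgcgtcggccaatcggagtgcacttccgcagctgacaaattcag

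Fos, Fosb and Junb held the core TGACG, at 129 and 66 bases before the start of Fos, 60 before that of Fosb and 106 before that of Junb. Jun held TGACATCA at 45 bases before its start in place of that core. Of 32851 windows of the same length, 17.8% held TGACG, 2.93% held TGACATCA and 12.4% held TATAAA. The canonical AP-1 site TGACTCA (4.46% of windows), the Egr1 site GCGTGGGCG (0.536%) and the CArG box of serum response factor (1.47%) were found in none of the 7 windows available for the 10 genes. Bases farther than 250 before a start were not searched for any gene, Fos included, so a site there would be missed. The box CCAAT (33.8% of windows) was found in those of Jun and Junb. Among the remaining windows, that of Atf3 held TGACG on the minus strand and those of Fosl2 and Jund held none of the 7 motifs. The RefSeq starts of these 3 genes differ from the GENCODE gene starts, by 671 bases (Fosl2), 1210 bases (Jund) and 34706 bases (Atf3). Their windows therefore do not adjoin the GENCODE starts, and the sequence before those starts was not searched. Windows of genes that fell (Fos and Fosb) and of a gene that rose (Junb) thus held the same core, and a match describes only these letters.

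The deposited values cover the exons of genes that differ in structure. By the GENCODE annotation of GRCm38, Fos lies at chr12:85473890-85477273, Fosb at chr7:19302696-19310051, Fosl1 at chr19:5447547-5455946, Fosl2 at chr5:32135801-32157842, Jun at chr4:95049034-95052222, Junb at chr8:84974484-84978718, Jund at chr8:70698949-70700616, Atf3 at chr1:191170296-191218039, Ier2 at chr8:84661331-84662852 and Egr1 on chromosome 18. Jun, Jund and Ier2 have a single exon, and the GC content of the longest transcript was 67.1% in Jund, 62.6% in Junb, 60.9% in Ier2 and 51.9% in Fos. Exons of another gene on the opposite strand covered 57.2% of the exons of Fosl1 (Ccdc85b), 52.6% of those of Jund (Gm11175), 7.52% of those of Junb (Prdx2) and 7.28% of those of Jun (Junos). The library kit marks strand, but use of strand in the counting was not given in the sources used here. Ccdc85b was at 97.2 to 942 RPM where Fosl1 was at 2.71 RPM or less, and Gm11175 was at 1.24 to 8.04 RPM where Jund was at 477 RPM or more.

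**Figure D1:**
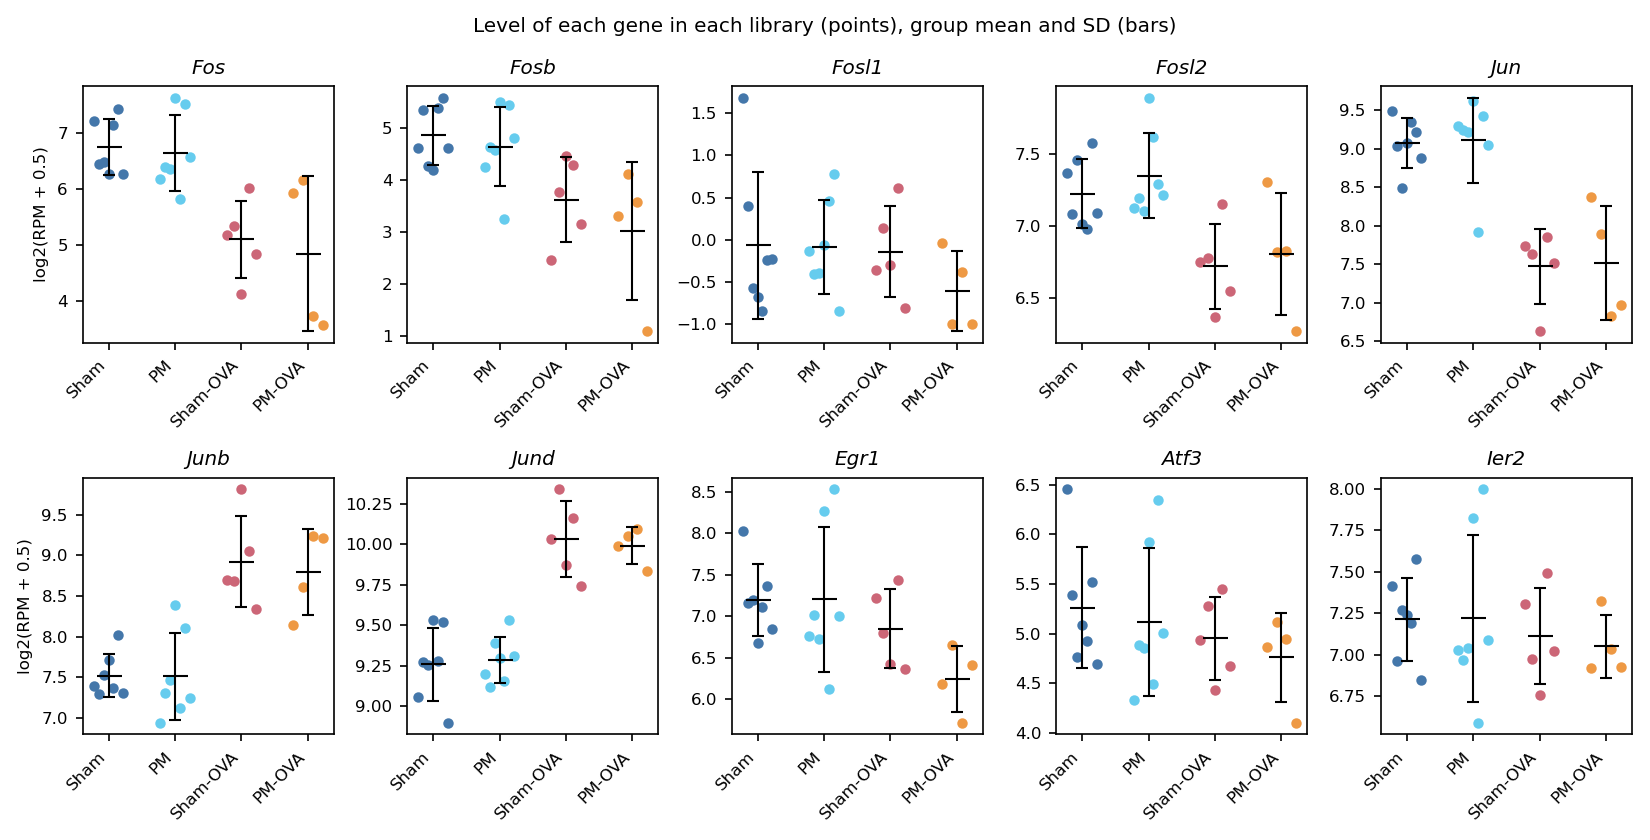
Level of each of the 10 genes in each library, as log2(RPM + 0.5), in Sham (n = 7), PM (n = 7), Sham-OVA (n = 5) and PM-OVA (n = 4). Points are libraries, and bars are the group mean and SD; Fos and Jun sat lower and Junb and Jund higher in the OVA groups, while Sham and PM overlapped for every gene.

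Levels were next compared per length, as RPM per kilobase of exon, with the exons of all annotated transcripts merged. Such values depend on which transcripts are annotated, not only on those expressed. By this measure Jund was the most abundant of the 10 genes in every group. In Sham it was at 371 ± 57.2 (SD, n = 7), followed by Jun at 172 ± 36.7, Ier2 at 98.4 ± 17.0, Junb at 80.8 ± 16.3, Fos at 48.0 ± 16.9, Egr1 at 34.0 ± 11.5, Atf3 at 19.2 ± 9.98, Fosl2 at 15.6 ± 2.66, Fosb at 4.86 ± 1.93 and Fosl1 at 0.323 ± 0.463. The order was the same in PM. In both groups the ranges of neighbours overlapped from Jun down to Fosl2, so only the places of Jund, Fosb and Fosl1 lay outside the spread between libraries. After OVA challenge Junb stood second, at 224 ± 98.5 in Sham-OVA (n = 5) and 203 ± 68.6 in PM-OVA (n = 4), and Jun came after Ier2, at 57.6 ± 15.9 and 63.1 ± 32.3.

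OVA challenge was the first comparison, of Sham-OVA with Sham and of PM-OVA with PM. In both cohorts Fos, Fosb, Fosl2 and Jun fell and Junb and Jund rose, while Egr1, Atf3, Ier2 and Fosl1 did not pass the test (limma on log2(RPM + 0.5), Benjamini-Hochberg adjusted p under 0.05 over 16795 genes). Thus 2 of the 10 genes were higher and 4 lower in each cohort. The response was widespread. In Sham offspring 20.6% of all genes tested were called higher and 47.5% lower, and in PM offspring 20.1% and 45.2%, so the number of these genes called was near the background. The split depended on the scaling: with median-of-ratios scaling 29.2% of all genes tested were called higher and 38.1% lower in Sham offspring and 28.9% and 35.7% in PM offspring, and of the 10 genes 2 were higher in each cohort and 2 (Sham) or 3 (PM) lower. With the length and GC trend removed, 1 was higher and 5 lower in Sham and 0 higher and 6 lower in PM offspring. The median log2 fold change of all genes tested was -0.48 in Sham and -0.43 in PM offspring, beside -0.33 and -0.53 for the 10 genes. At the stricter threshold of an adjusted p under 0.000001 with an absolute log2 fold change above 1, 0 of the 10 genes were called in either cohort, against 4.51% of all genes tested in Sham and 0.286% in PM offspring. Both comparisons have saline controls of their own.

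Fos, the partner of Jun in the most studied AP-1 dimer, ranged from 76.3 to 173 RPM in Sham (median 89.4) and from 56.0 to 197 RPM in PM (median 83.6). It was at 35.8, 40.2, 17.1, 64.3 and 28.3 RPM in Sham-OVA replicates 1 to 5, and at 60.5, 70.8, 12.9 and 11.4 RPM in PM-OVA replicates 1 to 4. Every Sham-OVA library lay below every Sham library, whereas PM-OVA replicates 1 and 2 lay within the range of PM. Fos was 3.13-fold lower in Sham (log2 fold change -1.65, SE 0.30, adjusted p = 0.000200) and 3.45-fold lower in PM offspring (-1.79, SE 0.52, adjusted p = 0.00898). Relative to the median of all genes this was -1.17 and -1.36.

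Fosb, a Fos paralogue with a truncated splice form, ranged from 17.6 to 47.2 RPM in Sham (median 23.9) and from 8.98 to 44.4 RPM in PM (median 24.3). In Sham-OVA it was at 5.00, 13.1, 21.4, 18.9 and 8.33 RPM, and in PM-OVA at 9.34, 16.7, 11.4 and 1.63 RPM. The groups overlapped in both cohorts, with 3 of 5 Sham-OVA libraries below every Sham library and 1 of 4 PM-OVA libraries below every PM library. The log2 fold change was -1.23 (SE 0.35, adjusted p = 0.00604) in Sham and -1.62 (SE 0.53, adjusted p = 0.0171) in PM offspring. It was no longer called in Sham offspring with median-of-ratios scaling (-0.87, adjusted p = 0.0702) or in PM offspring without PM-OVA replicate 4 (-0.98, adjusted p = 0.0564).

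Fosl2, or Fra-2, lacks the strong activation domain of Fos and has been linked to fibrosis. It ranged from 126 to 191 RPM in Sham (median 136) and from 137 to 237 RPM in PM (median 149), and was at 107, 109.5, 82.3, 142 and 93.1 RPM in Sham-OVA and 158, 113, 113 and 76.8 RPM in PM-OVA. Sham-OVA replicate 4 and PM-OVA replicate 1 reached the saline range, and the other OVA libraries lay below it. The log2 fold change was -0.50 (SE 0.16, adjusted p = 0.0114) in Sham and -0.54 (SE 0.20, adjusted p = 0.0308) in PM offspring, which was -0.02 and -0.12 relative to the median of all genes. With median-of-ratios scaling it was -0.14 (adjusted p = 0.440) and -0.18 (adjusted p = 0.381), and in PM offspring the call was also lost without PM replicate 4 or 5 or PM-OVA replicate 2, 3 or 4 (-0.55 to -0.37).

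Fosl1, or Fra-1, was close to the limit of detection. It ranged from 0.0557 to 2.71 RPM in Sham, with the highest value in Sham replicate 1 and a median of 0.349 RPM, and from 0.0569 to 1.22 RPM in PM (median 0.413). In Sham-OVA it was at 0.278, 0.602, 0.311, 1.04 and 0.0730 RPM, and in PM-OVA at 0.470, 0, 0.266 and 0 RPM. The value of 0.311 RPM in Sham-OVA replicate 3 is that of 1 read. Fosl1 had a log2 fold change of -0.07 (95% CI -0.90 to 0.76) in Sham and -0.52 (-1.19 to 0.14) in PM offspring, neither of which passed the test. Without Sham replicate 1 it was 0.22 in Sham offspring, and with the length and GC trend removed it was -0.69 (adjusted p = 0.163) in Sham and was called lower in PM offspring (-1.19, adjusted p = 0.00892).

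Jun, the main partner of Fos and a target of the JNK kinases, ranged from 359 to 714 RPM in Sham (median 536) and from 240.6 to 783 RPM in PM (median 602). Sham-OVA libraries were at 212, 197, 98.5, 229 and 182 RPM, and PM-OVA libraries at 332, 236, 113 and 125 RPM. The Sham groups did not overlap, and in the PM cohort the overlap was made by 1 library on each side, PM replicate 5 and PM-OVA replicate 1. Jun was 3.04-fold lower in Sham (log2 fold change -1.60, SE 0.22, adjusted p = 1.66e-05) and 3.02-fold lower in PM offspring (-1.59, SE 0.34, adjusted p = 0.00154). PM replicate 5, the lowest saline library for Jun, also had the lowest summed level of 8 endothelial genes in the saline libraries, at 1980 RPM against 3130 to 6162 RPM in 11 others, and the highest of 6 fibroblast genes, at 2493 RPM against 1299.8 to 1843 RPM. Their part in its Jun level was not tested.

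Junb, which competes with Jun for partners and acts in T helper type 2 cells, ranged from 157 to 259.7 RPM in Sham (median 168) and from 123 to 336 RPM in PM (median 158). It was at 415, 412, 900.1, 531 and 324 RPM in Sham-OVA and at 281, 389, 603 and 592 RPM in PM-OVA. All Sham-OVA libraries lay above all Sham libraries, and in the PM cohort PM-OVA replicate 1 lay below PM replicate 4. Junb was 2.64-fold higher in Sham (log2 fold change 1.40, SE 0.22, adjusted p = 6.59e-05) and 2.44-fold higher in PM offspring (1.28, SE 0.30, adjusted p = 0.00235), or 1.88 and 1.71 on the log2 scale relative to the median of all genes.

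Jund, the Jun protein that is present in resting cells and restrains proliferation, ranged from 477 to 738 RPM in Sham (median 617) and from 555 to 739 RPM in PM (median 629). In Sham-OVA it was at 1044, 1294, 935, 1145 and 857 RPM, and in PM-OVA at 1017, 1058, 1089.8 and 912 RPM. Jund alone among the 10 genes had every OVA library above every saline library in both cohorts. The log2 fold change was 0.77 (SE 0.16, adjusted p = 0.000621) in Sham and 0.71 (SE 0.13, adjusted p = 0.000721) in PM offspring. Groups did not overlap for 4 of the 10 genes in Sham offspring (Fos and Jun below, Junb and Jund above) and for 1 in PM offspring, against 48.1% and 41.9% of all genes tested.

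Junb and Jund, which rose, have transcripts of high GC content, as does Ier2, which was not called. Exon length and GC content were removed together, so the part of base composition alone was not tested. Across all genes tested the median log2 fold change after OVA challenge rose with the GC content of the longest transcript, from -0.84 in Sham and -0.83 in PM offspring for genes under 45% GC to 0.11 and 0.25 for the 717 genes at 60% or more, the class of Junb, Jund and Ier2. After removal of the trend of each library with exon length and GC content, Jund was at 0.09 (adjusted p = 0.686) in Sham and -0.09 (adjusted p = 0.663) in PM offspring, so its call was lost and in PM offspring its direction turned. Junb kept a rise of 0.79 in Sham offspring (adjusted p = 0.000844) and was at 0.60 (adjusted p = 0.0663) in PM offspring. Fos and Jun remained lower in both cohorts, at -1.99 and -1.93 in Sham and -2.13 and -1.95 in PM offspring. Whether the trend is technical was not tested.

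**Figure D2:**
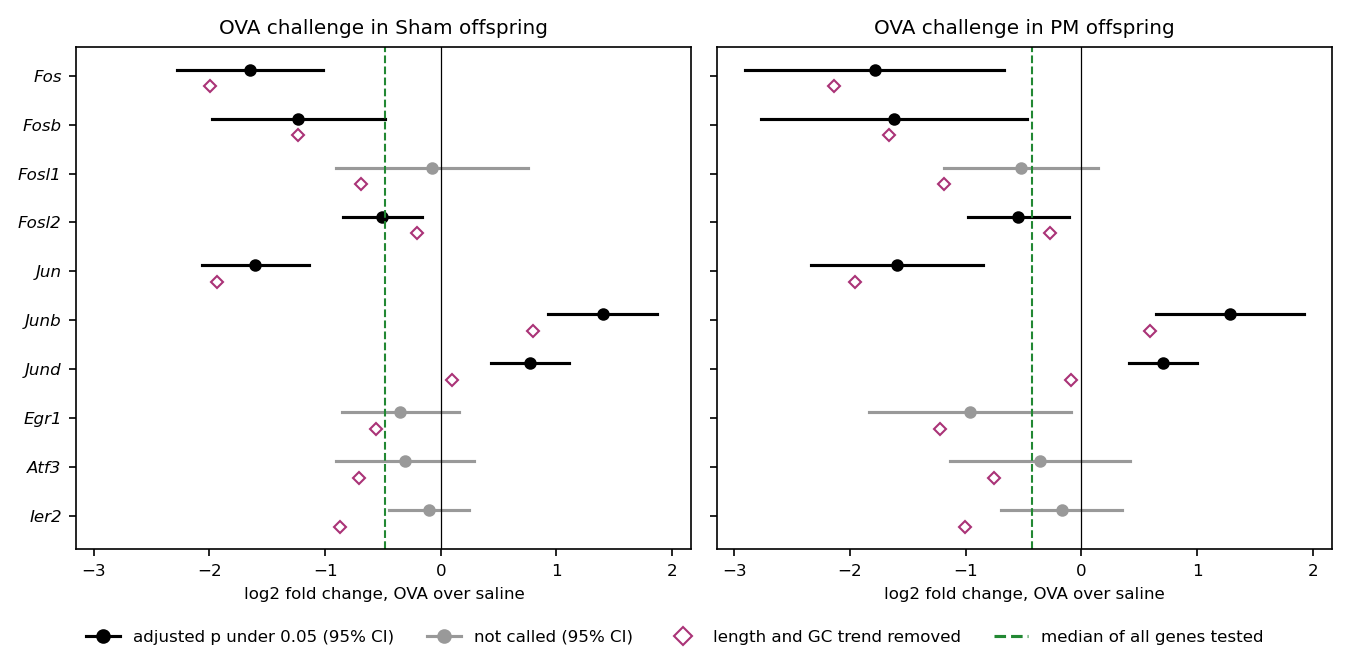
Log2 fold change of each gene after OVA challenge in Sham (left) and PM offspring (right), with 95% confidence intervals from limma; black is an adjusted p under 0.05, grey is not called, and the dashed line is the median of all genes tested. Diamonds are the values after removal of the trend with exon length and GC content, which put Jund at 0.09 and -0.09 while Fos and Jun stayed below -1.9.

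Depth moved with these values. The 3 shallowest libraries had the 3 lowest levels of Fos (11.4 to 17.1 RPM, against 28.3 to 70.8 RPM in the other 6 OVA libraries) and of Jun (98.5 to 125 RPM, against 182 to 332 RPM), and the 3 highest levels of Junb (592 to 900.1 RPM, against 281 to 531 RPM). They also had summed fibroblast markers of 594 to 659 RPM, against 1060 to 1959 RPM in the other OVA libraries, and smooth muscle markers of 1811 to 2036 RPM, against 721 to 1413 RPM. Summed heat shock genes were at 54.4 to 110 RPM, against 134 to 671 RPM. Cardiac muscle markers were at 121 to 357 RPM, against 35.1 to 95.9 RPM. The part of depth, of heat shock and of these cells in the levels was not tested. Without the 3 libraries, a setting chosen after seeing the data, the Sham cohort kept 6 genes called, with Fos at -1.40, Jun at -1.39, Junb at 1.18 and Jund at 0.81. The PM cohort then had 2 PM-OVA libraries and 2 genes called, Jun (-0.98, adjusted p = 0.0365) and Jund (0.73, adjusted p = 0.00181), while Fos (-0.60, adjusted p = 0.240), Fosb (-0.93, adjusted p = 0.121), Fosl2 (-0.29, adjusted p = 0.265) and Junb (0.86, adjusted p = 0.0501) were not called.

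Egr1, the zinc finger factor, ranged from 101.5 to 259 RPM in Sham (median 142), with the highest value in Sham replicate 1, and from 68.8 to 369 RPM in PM (median 127). It was at 148, 110.2, 85.4, 173 and 81.9 RPM in Sham-OVA and at 72.0, 100.2, 52.0 and 84.4 RPM in PM-OVA. The groups overlapped in both cohorts, although all 4 PM-OVA libraries were below the median of PM. The log2 fold change was -0.35 (95% CI -0.85 to 0.16, adjusted p = 0.203) in Sham and -0.96 (-1.84 to -0.08, adjusted p = 0.0518) in PM offspring. In Sham offspring it was -0.21 without Sham replicate 1 and 0.02 with median-of-ratios scaling. In PM offspring it passed the threshold without PM replicate 3 (-1.04) or PM replicate 5 (-1.14), with all 4 groups in one fit (-0.96) and with the length and GC trend removed (-1.22, adjusted p = 0.0218).

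Atf3, a stress-induced repressor that pairs with Jun proteins, ranged from 25.4 to 87.1 RPM in Sham (median 33.4), with the highest value in Sham replicate 1, and from 19.7 to 81.0 RPM in PM (median 29.0). In Sham-OVA it was at 30.0, 38.2, 21.1, 43.1 and 25.0 RPM and in PM-OVA at 28.7, 34.2, 30.4 and 16.7 RPM, with replicates 3 and 5 of Sham-OVA and replicate 4 of PM-OVA below the saline range of their cohort and the other 6 inside it. The log2 fold change was -0.31 (95% CI -0.91 to 0.29) in Sham and -0.36 (-1.14 to 0.42) in PM offspring. Neither passed the test. In Sham offspring it was -0.11 without Sham replicate 1 and 0.05 with median-of-ratios scaling, and with the trend removed Atf3 passed in Sham offspring (-0.71, adjusted p = 0.0474).

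Ier2, a small nuclear protein of the immediate early class, ranged from 114 to 191 RPM in Sham (median 151) and from 95.8 to 255 RPM in PM (median 131). It was at 158, 125, 107.5, 179.8 and 129 RPM in Sham-OVA and at 121, 159.8, 131 and 121 RPM in PM-OVA. All but Sham-OVA replicate 3 lay inside the saline ranges of their cohort. The log2 fold change was -0.10 (95% CI -0.45 to 0.24) in Sham and -0.17 (-0.69 to 0.36) in PM offspring. With the trend removed it was -0.87 (adjusted p = 0.00245) and -1.005 (adjusted p = 0.00700), and its direction flipped to 0.27 and 0.20 with median-of-ratios scaling.

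The make-up of the 2 families changed along with the levels, as a description chosen after the values were seen and given with no test. Per kilobase of exon, Jun made up 27.7% ± 5.31 (SD, n = 7) of the Jun family in Sham and 27.9% ± 5.80 (n = 7) in PM, but 6.43% ± 1.97 (n = 5) in Sham-OVA and 7.30% ± 3.98 (n = 4) in PM-OVA. Junb made up 8.88% to 19.0% in the saline libraries and 14.6% to 39.8% in the OVA libraries. Jund went from group means of 59.4% and 59.3% to 69.3% and 69.7%. The ratio of Junb to Jun was 0.272 to 0.798 in the saline libraries and 1.18 to 12.7 in the OVA libraries, so Jun stood above Junb in 14 of 14 saline libraries and below it in 9 of 9 OVA libraries. The lowest and highest OVA ratios were in PM-OVA replicate 1 and Sham-OVA replicate 3.

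In the Fos family, the share of Fos was 68.8% ± 5.05 (Sham), 66.04% ± 7.82 (PM), 52.2% ± 8.67 (Sham-OVA) and 48.1% ± 18.2 (PM-OVA). Fosl2 went from group means of 23.7% and 27.3% to 39.1% and 46.3%, and PM and PM-OVA libraries overlapped for both genes. The summed Fos family was at 68.8 ± 19.8 (Sham), 68.4 ± 28.2 (PM), 29.2 ± 10.1 (Sham-OVA) and 30.1 ± 16.4 RPM per kilobase (PM-OVA). The summed Jun family was at 624 ± 80.9, 642 ± 106, 915 ± 126 and 877 ± 52.5 RPM per kilobase in the same order. The mean Fos family sum was thus lower and the mean Jun family sum higher after OVA challenge. In the Jun family sum, Sham (up to 738) and Sham-OVA libraries (712 or more) overlapped, while PM (up to 778) and PM-OVA libraries (836 or more) did not. Most of that sum was Jund, whose rise was lost with the length and GC trend removed.

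**Figure D3:**
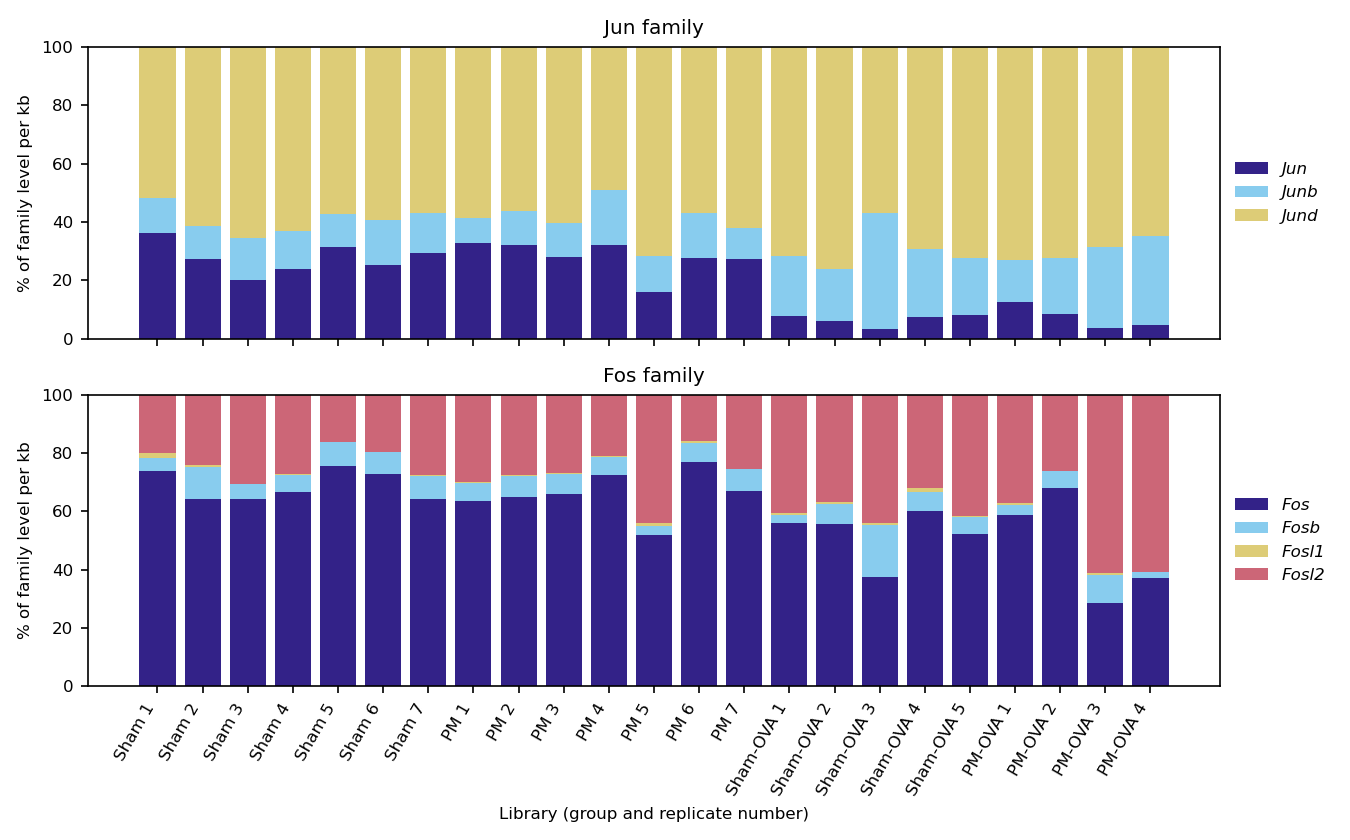
Share of each gene in the summed level of the Jun family (top) and the Fos family (bottom) in each of the 23 libraries, in percent of RPM per kilobase of exon. Jun shrank from 15.8% to 36.3% of its family in the saline libraries to 3.14% to 12.4% in the OVA libraries, and Fosl2 took its largest shares in PM-OVA replicates 3 and 4.

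Maternal exposure was the second comparison. Of the 10 genes, 0 were called in PM against Sham, in PM-OVA against Sham-OVA, or in the interaction of maternal exposure with OVA challenge, and 0% of all genes tested were called in each. With array weights, which give less weight to libraries that vary more, 27.5% of all genes tested were called in the interaction (3.88% higher and 23.6% lower, median -0.32), and still 0 of the 10 genes. At an unadjusted p under 0.05 limma gave 0 of the 10 genes in each of the 3 comparisons, beside 731, 313 and 854 of 16795 genes, and DESeq2 and edgeR on recovered reads also called 0 of the 10. The widest interval in PM against Sham was that of Fosl1, at -0.02 (95% CI -0.75 to 0.72), and the narrowest that of Jund, at 0.03 (-0.20 to 0.26). Fos was at -0.11 (-0.70 to 0.48), Fosb at -0.22 (-0.88 to 0.45), Jun at 0.03 (-0.43 to 0.50) and Junb at -0.01 (-0.43 to 0.42). The intervals of Fos, Fosb, Fosl1, Egr1 and Atf3 reach beyond 0.6 on the log2 scale in 1 direction or both. Changes of that size are thus not excluded for these genes. For each of the 10, changes inside its own interval are not excluded, which for Jund means from -0.20 to 0.26.

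After OVA challenge the largest difference between the cohorts was that of Egr1, at -0.61 in PM-OVA against Sham-OVA (95% CI -1.22 to 0.01, adjusted p = 1). Its groups overlapped, with PM-OVA at 52.0 to 100.2 RPM and Sham-OVA at 81.9 to 173 RPM. Egr1 also had the largest interaction, -0.61 (95% CI -1.61 to 0.38). Fosb was at -0.60 in PM-OVA against Sham-OVA with the widest interval (-2.03 to 0.83), and Jund at -0.04 with the narrowest (-0.45 to 0.37). Whether OVA challenge moved these genes differently in the 2 cohorts was thus not shown for any of them.

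Within groups, many of the genes varied together from mouse to mouse. In the 14 saline libraries, with group means removed, 42 of the 45 pairs of genes were positively correlated and 18 had an adjusted p under 0.05 for Pearson's r, of which 10 also passed with Spearman's rho (permutation test within groups, 100000 resamples, Benjamini-Hochberg over 45 pairs). The mean r over the pairs was 0.489, beside 0.0190 over all pairs of genes tested. Fos and Egr1 had r = 0.896 (permutation p = 0.00018, adjusted p = 0.00405) and rho = 0.877 (p = 7e-05, adjusted p = 0.00315), with r = 0.699 within Sham and 0.984 within PM, and 0.800 without the 2 libraries farthest from the median. Fos and Ier2 had r = 0.905 (permutation p = 0.00016, adjusted p = 0.00405) and rho = 0.802 (p = 0.00161, adjusted p = 0.0181), with r = 0.752 within Sham, 0.977 within PM and 0.824 without the 2 farthest libraries. Egr1 and Atf3 had r = 0.901 (permutation p = 0.00033, adjusted p = 0.00495) and rho = 0.745 (p = 0.00488, adjusted p = 0.0296), with r = 0.854 within Sham, 0.954 within PM and 0.817 without the 2 farthest.

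The pairs passing both tests joined Fos with Fosb, Jun, Egr1, Atf3 and Ier2, Egr1 with Fosb, Atf3 and Ier2, and Ier2 with Junb and Atf3. Fosl1, Fosl2 and Jund were in none of them. Jun and Junb had r = 0.438 (permutation p = 0.2003, adjusted p = 0.3005) and rho = 0.481 (p = 0.0984, adjusted p = 0.193), with r = 0.0512 within Sham and 0.515 without the 2 farthest libraries. Of the 18 pairs, 13 kept an r above 0.5 without the 2 farthest libraries.

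A few mice carried part of the shared variation. PM replicate 4 had 10 of the 10 genes above the group mean, by 0.63 on average on the log2 scale, and PM replicate 6 had 9, by 0.70. Sham replicate 6 had 9 above its group mean (0.33 on average), Sham replicate 7 had 0 (-0.31), and PM replicate 5 had 2 (-0.55). PM replicates 4 and 6 had the highest mean deviations of the saline libraries, so leaving them out favours a fall in r. Without them, a setting chosen after seeing the data, the mean r fell to 0.289, with 37 of 45 pairs positive. Fos and Egr1 were then at r = 0.747. Without Sham replicate 1 the mean r was 0.517, with 43 pairs positive. The summed level of 7 heat shock genes was 141 RPM in PM replicate 4 and 286 RPM in PM replicate 6, inside the range of 89.9 to 857 RPM in 11 other saline libraries. The summed endothelial levels of these 2 replicates, 5410 and 5132 RPM, also lay inside the range of those 11 libraries.

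**Figure D4:**
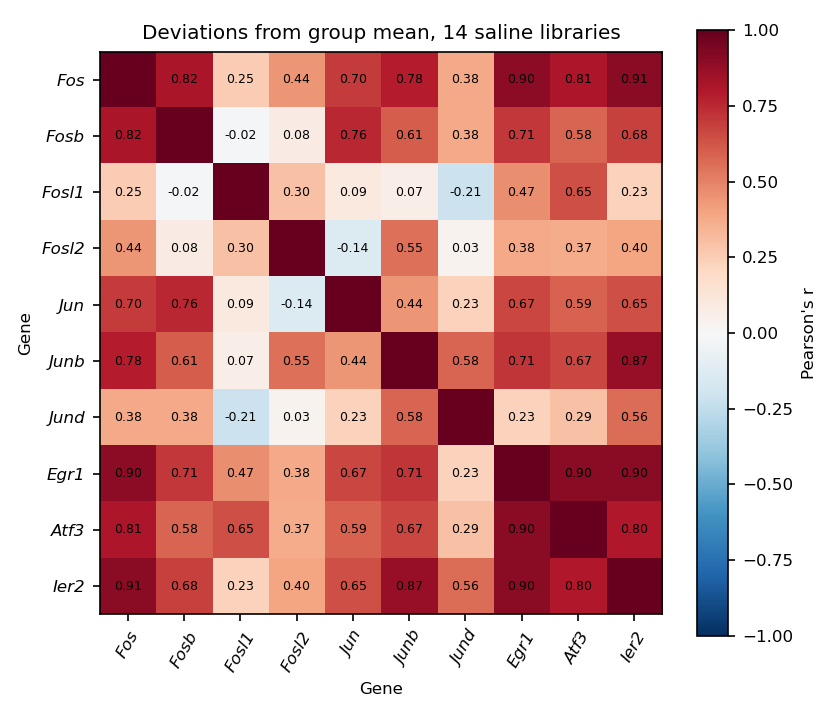
Pearson's r between each pair of the 10 genes over the 14 saline libraries after removal of group means, printed in each cell and coloured from -1 (blue) to 1 (red). Fos, Egr1, Atf3 and Ier2 correlated at 0.80 or above in every pairing, while Fosl1, Fosl2 and Jund correlated weakly with most of the others.

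In the 9 OVA libraries the mean r over the pairs was 0.338, beside 0.210 over all pairs of genes. The genes whose deviations from the group means were most like the mean of the 10 over all 23 libraries were Zfp11 (r = 0.775), Btg2 (0.756), Ppm1k (0.745), Ptpn14 (0.744) and Mn1 (0.729). Btg2, an antiproliferative immediate early gene, had r = 0.862 in the saline libraries alone. After OVA challenge Btg2 was at 0.01 in Sham (adjusted p = 0.964) and 0.02 in PM offspring (adjusted p = 0.934), whereas Ppm1k, a mitochondrial phosphatase, was lower in both (-1.72 and -1.75).

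The other genes of the pathway also moved in both directions after OVA challenge. Of 29 other immediate early genes tested, 6 rose and 12 fell in Sham offspring and 5 rose and 13 fell in PM offspring, with median log2 fold changes of -0.49 and -0.48, close to those of all genes. The excess of falls depended on the scaling, with 9 higher and 11 lower in Sham and 8 higher and 9 lower in PM offspring by median-of-ratios scaling, and 9 higher and 9 lower in Sham by edgeR, where the median was 0.22. Klf4, a Krüppel-like factor of epithelium and macrophages, averaged 72.9 ± 23.9 RPM (SD, n = 7) in Sham and 0.837 ± 0.482 RPM (n = 5) in Sham-OVA, without overlap (log2 fold change -5.80, adjusted p = 1.46e-09). In PM offspring it fell by 4.81 on the log2 scale (adjusted p = 0.000638), with PM-OVA libraries between 0 and 35.1 RPM. Apold1, an endothelial immediate early gene, was lower in Sham (-2.22) and PM offspring (-1.497). Of the 8 endothelial markers, 2 rose and 4 fell in Sham and 1 rose and 4 fell in PM offspring. The paper lists Klf4, Apold1 and Klf2 among endothelial signature genes, and the part of endothelium in their levels was not tested. Klf2, a flow-responsive factor of endothelium, and Gadd45g, a stress sensor, rose by 1.40 and 1.43 in Sham offspring. In PM offspring Klf2 (1.502, adjusted p = 0.0185) lost its call when the 3 shallowest libraries were left out (0.31), when PM-OVA replicate 3 (1.11) or 4 (1.09) was, and with the trend removed (0.73). Gadd45g lost its call in both cohorts with the trend removed (0.58 and 0.34).

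Among 16 other AP-1 and basic leucine zipper partners, 5 rose and 7 fell in Sham and 4 rose and 7 fell in PM offspring, with medians of 0.02 and -0.04. Median-of-ratios scaling gave 7 higher and 7 lower in Sham and 7 higher and 6 lower in PM offspring (medians 0.37 and 0.31), and removal of the length and GC trend 5 higher and 8 lower and 3 higher and 9 lower (medians -0.33 and -0.49). Batf3, a Jun partner of dendritic cells, averaged 1.36 ± 0.647 RPM (n = 7) in Sham and 30.2 ± 3.88 RPM (n = 5) in Sham-OVA, a rise (log2 fold change 4.11, adjusted p = 1.90e-08) that was 3.65 in PM offspring (adjusted p = 4.99e-06), without overlap in either cohort. Atf1, a CREB family member, was lower in both cohorts (-1.99 and -1.70), as was Mafk, a small Maf protein (-1.76 and -1.76).

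Of 24 upstream factors and kinases, 5 rose and 10 fell in Sham and 7 rose and 12 fell in PM offspring, with medians of -0.22 and -0.38. This balance turned in Sham offspring with median-of-ratios scaling, which gave 10 higher and 9 lower (median 0.15), and with DESeq2, which gave 12 higher and 9 lower; in PM offspring the scaling gave 10 higher and 11 lower (median -0.02). Ep300, a histone acetyltransferase that co-activates AP-1, was lower in both cohorts (-2.06 and -2.13), as was Mrtfb, a co-activator of serum response factor (-2.02 and -2.03). Map2k2, a kinase that activates ERK, rose by 1.497 and 1.24. Srf, the serum response factor, rose by 0.88 in Sham and 0.79 in PM offspring, where the call was lost without any 1 of the 7 PM libraries (0.76 to 0.80), without PM-OVA replicate 3 (0.56) or 4 (0.46) and without the 3 shallowest libraries, when it was at -0.04. With the trend removed it was not called in either cohort (0.39 and 0.20).

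Of 16 inhibitors and decay factors, 4 rose and 7 fell in Sham and 3 rose and 7 fell in PM offspring, with medians of -0.53 and -0.27. With median-of-ratios scaling 7 were higher and 7 lower in Sham and 5 higher and 7 lower in PM offspring (medians -0.18 and 0.08). Nab1, a co-repressor of Egr proteins, averaged 12.7 ± 4.53 RPM (n = 7) in Sham and 0.373 ± 0.267 RPM (n = 5) in Sham-OVA (log2 fold change -3.88, adjusted p = 1.84e-07), and its log2 fold change in PM offspring was -3.73. Zfp36l2, which promotes decay of AU-rich mRNAs such as those of immediate early genes, was lower in both cohorts (-3.47 and -2.85), although in PM offspring edgeR did not call it (-1.49, adjusted p = 0.0604). Hdac3, a histone deacetylase, rose by 1.00 and 0.98, and Fbxw7, a ubiquitin ligase subunit that targets Jun, by 0.82 and 0.54, the latter not called with the replicate number as a block (0.57, adjusted p = 0.0616).

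Of 21 AP-1 and Egr1 target genes, 9 rose and 6 fell in Sham and 7 rose and 5 fell in PM offspring, with medians of 0.47 and 0.12. With median-of-ratios scaling 12 were higher and 5 lower in Sham and 9 higher and 5 lower in PM offspring (medians 0.79 and 0.47), and with the length and GC trend removed the medians were 0.16 and -0.18 (8 higher and 6 lower, and 7 higher and 7 lower). Without PM-OVA replicate 4 the PM median was -0.05. Mmp12, the macrophage elastase, averaged 7.29 ± 3.84 RPM (n = 7) in Sham and 706 ± 208 RPM (n = 5) in Sham-OVA (log2 fold change 6.57, adjusted p = 1.20e-09), with a rise of 6.32 in PM offspring. Timp1, an inhibitor of matrix metalloproteinases, rose by 4.21 and 3.21. Vegfa, an endothelial growth factor made by alveolar epithelium, was lower in both cohorts (-2.60 and -2.24). In all 5 lists, 0 genes were called in PM against Sham, in PM-OVA against Sham-OVA or in the interaction.

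**Figure D5:**
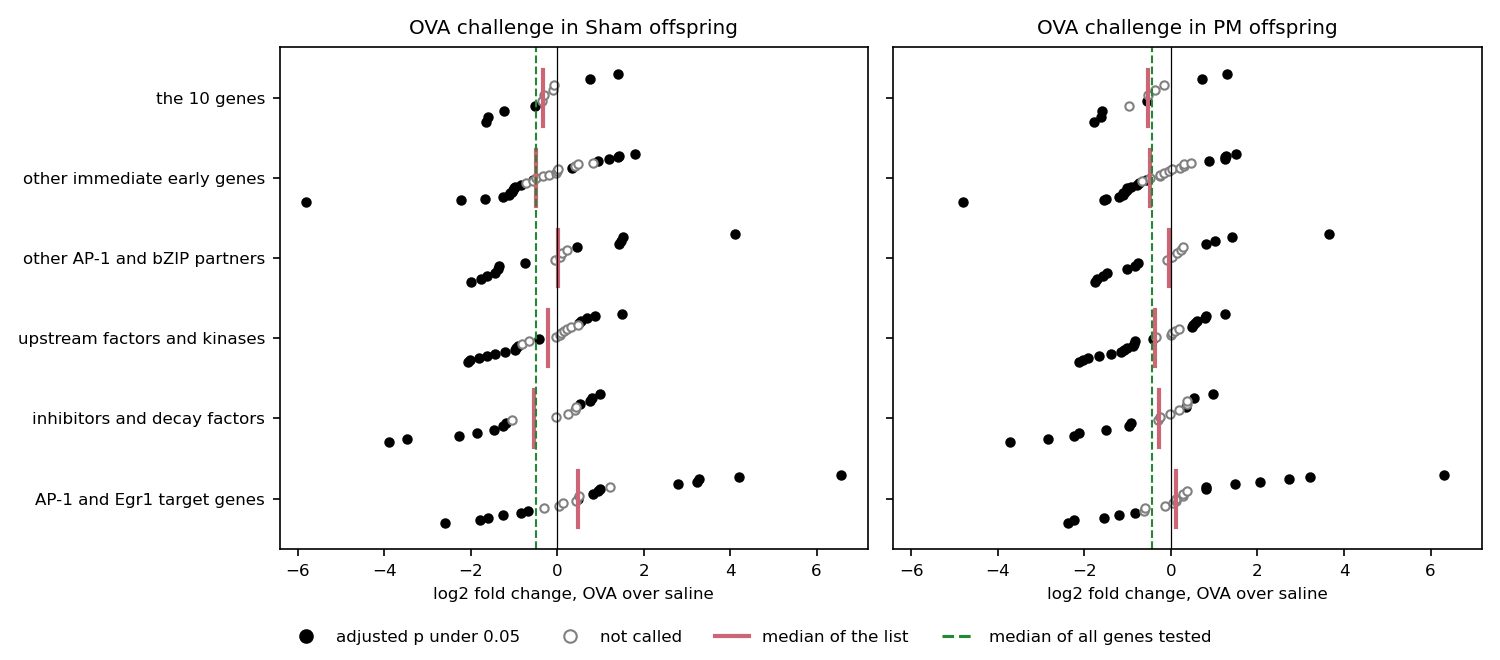
Log2 fold change after OVA challenge of each gene of the 10 and of the 5 lists around them in Sham (left) and PM offspring (right); black points have an adjusted p under 0.05 in limma, open points do not, bars are list medians, and the dashed line is the median of all genes tested. Every list held genes on both sides of 0, with Klf4 farthest below and Mmp12 farthest above.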

How the data were processed

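RNA-Seq values of 23 lung libraries in 4 groups, taken from the labels, were analysed. Per the labels and methods, the authors used Trimmomatic for trimming, Bowtie2 for alignment to GRCm38 and SeqMonk for quantification. The deposited values are RPM, although the table is named after RPKM: whatever the gene length, 100% of values came out as whole reads (tolerance 0.05), so read counts were recovered. The genes and lists were chosen with earlier results of these data known. Values were tested as log2(RPM + 0.5) with limma 3.58.1 in R 4.3.3, two-sided, with a variance trend, on the 16795 genes reaching 0.5 RPM in 4 or more libraries. A fold change on this scale understates that of low genes. Only the 2 groups compared entered a fit, and all 4 the interaction. Named genes were the 10, the 2 largest rises and 2 largest falls in Sham offspring of each list among genes called without overlap, and the 5 genes most like the mean of the 10. Of these, 2 are not reported here. DESeq2 1.42.0 and edgeR 4.0.16 were run on recovered reads. Length and GC content were known for 98.5% of genes tested. Fits were tested on simulated data. Sequences and coordinates came from RefSeq and GENCODE, and figures from matplotlib 3.10.9.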

Additional observations from a re-analysis of the deposited data

Results flagged for a closer look

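Of 40 sets of libraries, 10 genes in 4 groups, 2 had a library farther from the others than Dixon's 95% critical value allows on the log2 scale, and chance alone flags about 1 in 20, or 2. Jun in PM replicate 5 was at 240.6 RPM, with a gap to the next PM library of 0.669 of the range of the group (critical value 0.568). Jun in Sham-OVA replicate 3, the shallowest library, was at 98.5 RPM, with a gap of 0.725 of the range (critical value 0.71). Without PM replicate 5 or Sham-OVA replicate 3, Jun was still called lower after OVA challenge.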

How the results depend on the processing

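Over 528 single-gene values in the 2 OVA comparisons under the alternatives, 472 kept their status, which was called or not called. Of the rest, 40 lost a call, 14 gained one and 2 with a call turned in direction. Both were those of Jund in PM offspring with the length and GC trend removed, at -0.0917, and at -0.0778 with the replicate block as well. Fosl1 gave no value with a filter on a mean of 0.5 RPM, which it did not pass. At the stricter threshold limma called 0 of the 10 genes in either cohort, against 6, while by DESeq2 Jun, Junb and Jund passed it in Sham offspring. At the main threshold 2 were called in PM offspring without the 3 shallowest libraries (chosen after seeing the data). Leaving out each library left 6 of the 10 called in all Sham fits and 4 (without PM-OVA replicate 4) to 7 (without PM replicate 3) in PM offspring. Fos and Jun lower and Junb and Jund higher stayed called in both cohorts with quantile, median-of-ratios and TMM scaling, DESeq2 and edgeR, which gave 2 higher and 2 lower in Sham and 2 higher and 2 or 3 lower in PM offspring. These scalings moved the median of all genes from -0.48 to between -0.18 and -0.05 in Sham offspring and turned signs of genes not called: under all alternatives 27 such values of Fosl1, Egr1, Atf3 and Ier2 turned, in Sham offspring with quantile scaling Fosl1 (0.46), Atf3 (0.08) and Ier2 (0.15), and with median-of-ratios scaling Egr1 (0.02) as well. DESeq2 called 11754 and edgeR 11253 genes in Sham offspring, and 10910 and 10215 in PM offspring, against 11431 and 10968 by limma. In the interaction 4616 genes were called with array weights and 0 to 6 in the other settings, and 0 of the 10 in all.

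Replicate numbers of the sample titles are shared between groups, but the library names of most OVA samples carry other numbers. The name of PM-OVA replicate 4, among the 3 shallowest libraries, is marked Rel, unlike any other, with no meaning given. The pairing was not borne out in any comparison by every pair (r -0.07 to 0.12 in the Sham cohort, -0.10 to 0.06 in the PM cohort, -0.25 to 0.10 between PM and Sham, and -0.31 to 0.62 between the OVA groups, with 3 of 4 pairs over 0.1). With the replicate block 5 of the 10 were called in each cohort, without Fosl2 in both, without Fosb and with Egr1 in PM offspring. In PM offspring the block left 11 of 24 upstream factors, 9 of 29 other immediate early genes and 7 of 16 partners called, against 19, 18 and 11, and 11 upstream factors with the trend removed as well. Without the 3 shallowest libraries 11 of the 29 immediate early genes were called. The causes were not tested. Depth limits Fosl1 most, which held 0 to a few reads in the shallow libraries.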
